A study of Homo sapiens with 2 samples.

Results

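Contacts that join a captured promoter fragment to another captured promoter fragment 50 to under 500 kb away on the same chromosome were described in K562 cells. A contact was kept when it was in either of the deposited lists and both of its fragments occurred as a captured (bait) fragment in either list. Chromosomes 9, 13 and 22 were left out. This gave 15909 fragment pairs of the 138160 pairs in the lists, or 11.5%.

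K562 is an established human cell line from chronic myelogenous leukaemia that carries the BCR-ABL1 fusion. Promoter-capture Hi-C was run on it after 24 h with DMSO, the vehicle, or with 100 nM ponatinib, an ABL kinase inhibitor. There was 1 library per treatment, each from the same number of cells, cut with the restriction enzyme HindIII. With 1 library per group no difference between the treatments has a replicate check, and every interval given below is a 95% interval for counting error that treats pairs as independent. Read depth cannot be given, since the lists carry no counts of reads.

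Promoters of neighbouring genes can be ligated together when they lie close in the nucleus. Such contacts are known from gene clusters whose members are used together, such as the histone genes, whose messages are made in S phase, and the clustered protocadherin genes, where CTCF and cohesin join variable promoters to distant enhancers. A promoter fragment in such a map is a whole HindIII fragment that was captured, so it can hold several gene starts or none.

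A pair of gene clusters on chromosomes 6 and 5 carried many of the same-family contacts described below, and the promoters of their strongest pairs are shown first. Sequences are from RefSeq (GRCh38.p14), 5′ to 3′ on the plus strand, up to 250 bases before the gene start. Bases of a neighbouring gene that ended within the stretch were left out, but a gene body that spans the whole stretch was not. Capitals mark every match to 10 motifs searched on both strands: the core of the CTCF motif (CCANNAGGG), the TATA box (TATAAA), the CCAAT box, the GC box (GGGCGG), the ETS factor motif (CCGGAAG), the NRF1 motif (GCGCATGC), the YY1 motif (AAGATGGC), the GATA factor motif (AGATAA), the E-box (CACGTG) and the letters TGGCGCT. The last of these, which holds the CGCT letters of the conserved protocadherin promoter element, was added after the sequences had been seen. Overlapping matches were counted separately. A match is a description of letters and not of a bound site.

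The H2BC15 promoter (chr6:27838376-27838568, + strand) and the H2BC17 promoter (chr6:27893186-27893424, + strand) belong to the genes of the highest scoring histone pair. Both genes encode histone H2B. The H2BC17 fragment of that pair begins at 27893257, so the first bases of its stretch lie on the neighbouring H2AC17/H3C12 fragment.
H2BC15: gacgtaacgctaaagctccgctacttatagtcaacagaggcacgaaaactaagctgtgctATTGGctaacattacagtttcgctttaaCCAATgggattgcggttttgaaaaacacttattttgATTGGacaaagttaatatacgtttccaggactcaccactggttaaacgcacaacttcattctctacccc
H2BC17: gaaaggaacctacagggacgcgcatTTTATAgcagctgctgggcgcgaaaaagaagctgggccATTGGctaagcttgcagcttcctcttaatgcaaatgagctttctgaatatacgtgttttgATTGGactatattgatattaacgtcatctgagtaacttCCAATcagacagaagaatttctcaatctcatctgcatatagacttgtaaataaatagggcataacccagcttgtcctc
The H2BC15 stretch held 3 CCAAT matches and no TATAAA, and the H2BC17 stretch held 3 CCAAT matches and 1 TATAAA.

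The protocadherin promoters are those of PCDHB7 (chr5:141172394-141172643), PCDHB14 (chr5:141223093-141223342) and PCDHGC3 (chr5:141475716-141475965), all on the + strand. PCDHB7 and PCDHB14 were the family's fragments with most promoter partners, and PCDHB14 with PCDHGC3 was its highest scoring pair.
PCDHB7: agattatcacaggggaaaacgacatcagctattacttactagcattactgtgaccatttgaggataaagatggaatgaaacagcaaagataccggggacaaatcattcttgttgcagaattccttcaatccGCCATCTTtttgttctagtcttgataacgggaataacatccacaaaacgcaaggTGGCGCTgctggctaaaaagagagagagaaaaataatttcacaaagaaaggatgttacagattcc
PCDHB14: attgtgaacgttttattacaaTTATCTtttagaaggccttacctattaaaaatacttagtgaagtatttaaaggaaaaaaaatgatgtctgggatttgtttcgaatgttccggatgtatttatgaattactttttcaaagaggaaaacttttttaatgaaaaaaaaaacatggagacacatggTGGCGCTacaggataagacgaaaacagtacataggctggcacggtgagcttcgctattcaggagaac
PCDHGC3: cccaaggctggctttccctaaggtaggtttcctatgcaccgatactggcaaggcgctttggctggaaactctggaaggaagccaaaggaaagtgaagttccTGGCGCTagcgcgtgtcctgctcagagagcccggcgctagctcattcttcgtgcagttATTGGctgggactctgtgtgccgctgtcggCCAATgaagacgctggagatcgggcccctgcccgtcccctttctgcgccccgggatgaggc
Each held 1 TGGCGCT match, which began 65 bases before the start in PCDHB7, 67 in PCDHB14 and 149 in PCDHGC3.

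The DMSO list held 10676 of the promoter pairs and the ponatinib list 11360. Their ratio was 1.06 (1.04 to 1.09), beside 1.09 (1.08 to 1.10) for all listed pairs and 1.08 (1.06 to 1.09) for pairs of a promoter and a distal fragment over the same distances. With the ponatinib list cut by score to the length of the DMSO list, the ratio of promoter pairs was 1.00 (0.977 to 1.03). In all, 6127 pairs were in both lists, 4549 in DMSO only and 5233 in ponatinib only. The pairs touched 11174 fragments, 67.5% of the 16547 bait fragments outside the chromosomes left out. Of these fragments 7906 held a protein-coding gene, 641 only the start of a long non-coding RNA gene, 1747 lay inside a gene body without a start, and 880 had no gene. Coding genes were at both ends of 9072 pairs (57.0%), at 1 end of 5597 and at neither end of 1240. The pairs thus reached 9136 of the 12444 genes on bait fragments.

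Promoter pairs were found in the other list more often than promoter to distal pairs. Of the DMSO promoter pairs 57.4% (56.4 to 58.3%) were also in the ponatinib list, against 44.1% (43.6 to 44.5%) of the 41960 distal pairs, a difference of 13.3 percentage points (12.3 to 14.4). Of the ponatinib promoter pairs 53.9% were also in DMSO, against 40.8% of 45265 distal pairs. The scores of promoter pairs were higher, with 20.9% at a score of at least 10 in DMSO against 11.4% of distal pairs. When distal pairs were weighted to the promoter pairs' bins of score and distance, 52.3% were shared. The difference was widest at low scores. At scores of 5 to under 6 in DMSO 35.8% of promoter pairs and 25.3% of distal pairs were shared, at 10 to under 15 the shares were 86.3% and 87.0%, and at 20 and above they were 98.9% and 100%. Sharing also fell with distance, from 66.3% of DMSO promoter pairs at 50 to under 100 kb to 39.7% at 450 to under 500 kb. Both ends of a promoter pair were capture targets, and in this design that cannot be told apart from being a promoter.

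**Figure D1:**
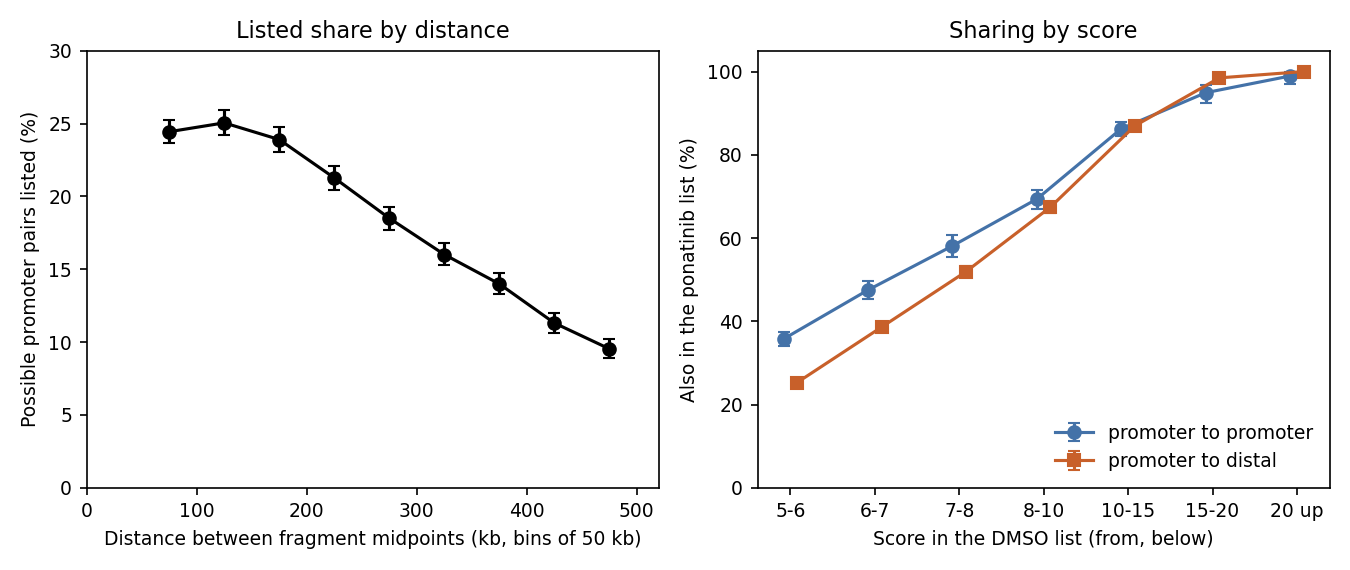
Left, the share of all possible pairs of bait fragments that was listed (%), in 50 kb bins of distance, with 95% binomial intervals; it falls from 24.4% in the nearest bin to 9.54% in the farthest. Right, the share of the DMSO pairs also in the ponatinib list (%), by score in the DMSO list, for promoter to promoter (circles) and promoter to distal pairs (squares) of 50 to under 500 kb; promoter pairs lie above distal pairs in the bins below a score of 10 and below them from 10 upward.

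The midpoints of a promoter pair were 208 kb apart in the median (204 to 210 kb), against 259 kb for all 85311 pairs of bait fragments that could have been listed. In all, 18.6% of the possible pairs were listed. The share was 24.4% at 50 to under 100 kb, 25.1% at 100 to under 150 kb and 9.54% at 450 to under 500 kb. Shared pairs were nearer, with a median of 178 kb, than pairs in DMSO only (223 kb) or ponatinib only (234 kb). The contacts often passed over other captured promoters: a median of 3 bait fragments lay between the ends and at most 26, and 1958 pairs (12.3%) had none between. Among pairs with 1 strand of gene starts at each end, gene orientation made little difference. Of possible pairs 20.2% were listed when the genes ran the same way, 20.3% when they faced each other and 20.6% when they faced away.

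The chromosomes with most pairs were 1 (2588), 11 (1426) and 12 (1309). The listed pairs were also set against the number that distance alone gives for the possible pairs. Chromosome 8 had 1.24 times as many (593 pairs), chromosome 6 1.23 times (903 pairs) and chromosome 18 1.22 times (153 pairs). Chromosome 19 had the lowest value, 0.741 times as many (783 pairs), followed by chromosomes 10 (0.800), 20 (0.803) and 17 (0.817). With baits required in both lists chromosome 19 had 569 pairs against 688.8 from distance, and chromosome 17 had 804 against 976.6. Under that limit chromosome 8 had 533 pairs against 435.3 and chromosome 6 had 804 against 693.7. Chromosome 19 pairs were also among the least shared, with 30.5% of them in both lists, against 44.5% on chromosome 6 and 46.4% on chromosome 18. The X chromosome had 29.4%.

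The authors' score, whose definition is not given in the sources used here, had a median of 6.97 in DMSO and 7.01 in ponatinib, with no score under 5. The highest was 55.47 in DMSO and 75.78 in ponatinib. Pairs in both lists had a median of 8.07 in DMSO and 8.30 in ponatinib. Pairs in 1 list only had 6.10 in DMSO and 6.18 in ponatinib. Of the 100 highest scoring DMSO pairs 99 were in the ponatinib list, and of the 100 highest in ponatinib 98 were in DMSO. Among shared pairs the ponatinib score was the higher in 3227 and the lower in 2885, and 94.8% of shared pairs had scores within 2-fold of each other. That share is raised by the lack of scores under 5, since most shared scores lie near that value. The rank correlation (Spearman) of the shared scores was 0.533. These comparisons describe the lists, since scores were not put on a common scale.

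Among shared pairs with a gene at both ends the strongest, ranked by the lower of the scores, was on chromosome 1. ERRFI1, a feedback inhibitor of EGF receptor signalling, was joined to SLC45A1, a sugar transporter gene, over 291 kb, with scores of 36.55 in DMSO and 46.53 in ponatinib. SP7, a bone cell transcription factor gene, was joined to the fragment of NPFF and TARBP2 on chromosome 12, with scores of 35.99 and 53.97. NCOA7, a nuclear receptor coactivator gene on chromosome 6, had a pair with HINT3 (36.68 and 35.99) and a pair with TRMT11, a transfer RNA methyltransferase gene (35.96 and 34.71). Both passed over other bait fragments, 1 and 2 respectively. ADAMTS8, a secreted protease gene, and SNX19 were joined across 433 kb on chromosome 11 (35.58 and 39.08). The remaining pairs of the highest 10 were BEND6/DST with PRIM2 (39.04 and 35.33), CFAP141 with HAX1 (35.12 and 36.9), SUPT4H1 with RNF43 (34.79 and 52.98), SDE2 with H3-3A (34.54 and 34.03) and THAP2/ZFC3H1 with RAB21 (35.63 and 33.36). A slash joins genes on 1 fragment, which the assay cannot tell apart.

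Pairs found in 1 list only reached a score of 30.9 in DMSO and 36.68 in ponatinib, at pairs without a coding gene at both ends. Among those with a gene at both ends the highest in DMSO only were FIRRM/METTL18 with SCYL3 (21.17), TGOLN2 with VAMP5 (18.33), 2 fragments of SAMSN1 (17.76), TMIGD1 with GOSR1 (17.28) and LCE1A with LELP1 (16.42). With a gene at both ends and in ponatinib only, CNPY4/TAF6 was joined to PILRB with a score of 28.35, and UCN, which encodes the peptide urocortin, to GTF3C2, a subunit of transcription factor TFIIIC, with 28.17. PTGIR with STRN4 (26.74), GAB2 with NARS2 (21.69) and ZC3H8 with CHCHD5 (21.48) followed. GAB2 is an adaptor protein in BCR-ABL1 signalling.

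Contacts fell unevenly on fragments. Of the 11174 fragments 3836 (34.3%) had 1 promoter partner, the median was 2 and the highest was 25. A hub, set here as 10 or more partners over both lists, was reached by 238 fragments (2.13%), which took part in 2627 pairs (16.5%). Counted in each list alone, 83 fragments reached 10 partners in DMSO, 116 in ponatinib and 64 in both. Of pairs with a hub end 48.2% were shared, against 36.6% of the 13282 others. Hub fragments were baits in both lists in 97.9% of cases, against 87.2% of fragments with 1 to 9 partners. Their median length was 6.65 kb against 6.68 kb. They lay among more captured promoters, with a median of 25 possible partners against 10. This value and the share of baits in both lists are tied to the definition. A hub must have at least 10 possible partners and 10 listed pairs. Partners of 1 fragment that lay within the distance range of each other were themselves listed as a pair in 40.3% of 40874 cases, against 18.6% of all possible pairs, a comparison not matched on distance.

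**Figure D2:**
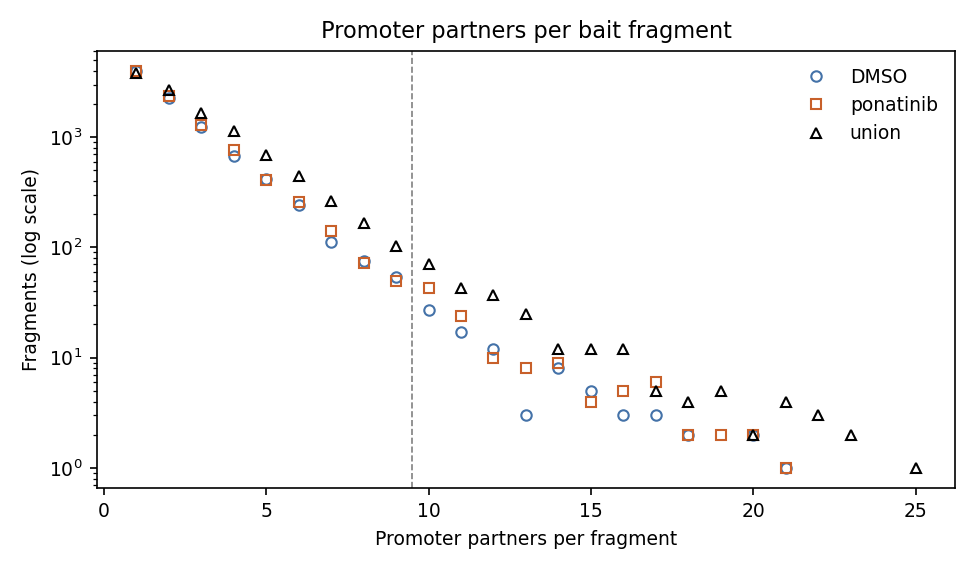
Number of bait fragments (log scale) by their number of promoter partners, in DMSO (circles), ponatinib (squares) and the union of the lists (triangles). The dashed line marks the hub threshold, and the highest numbers of partners are 21 in each list and 25 in the union.

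The fragment with most partners held RPS26, a ribosomal protein gene of the small subunit (12:56041004-56044317). It had 20 partners in DMSO and 20 in ponatinib, 15 of them shared, and 25 of 38 possible partners in all. Of these, 11 lay at lower coordinates, among them the fragments of DGKA/PYM1 (scores 24.95 in DMSO and 21.36 in ponatinib) and ORMDL2/SARNP (24.72 and 23.5). DGKA is a diacylglycerol kinase gene. At CD63/GDF11, the former a tetraspanin gene, the scores were 6.29 and 27.17. Toward higher coordinates were RPL41, another ribosomal protein gene (6.67 and 9.8), SMARCC2, a subunit of the SWI/SNF remodeller (11.27 and 7.29), and RNF41 (6.79 and 12.08). TIMELESS (5.17) and SPRYD4 (6.68), the farthest partners in that direction, were in DMSO only. SMARCC2 itself was a hub with 18 partners in DMSO and 21 in ponatinib, 17 shared.

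**Figure D3:**
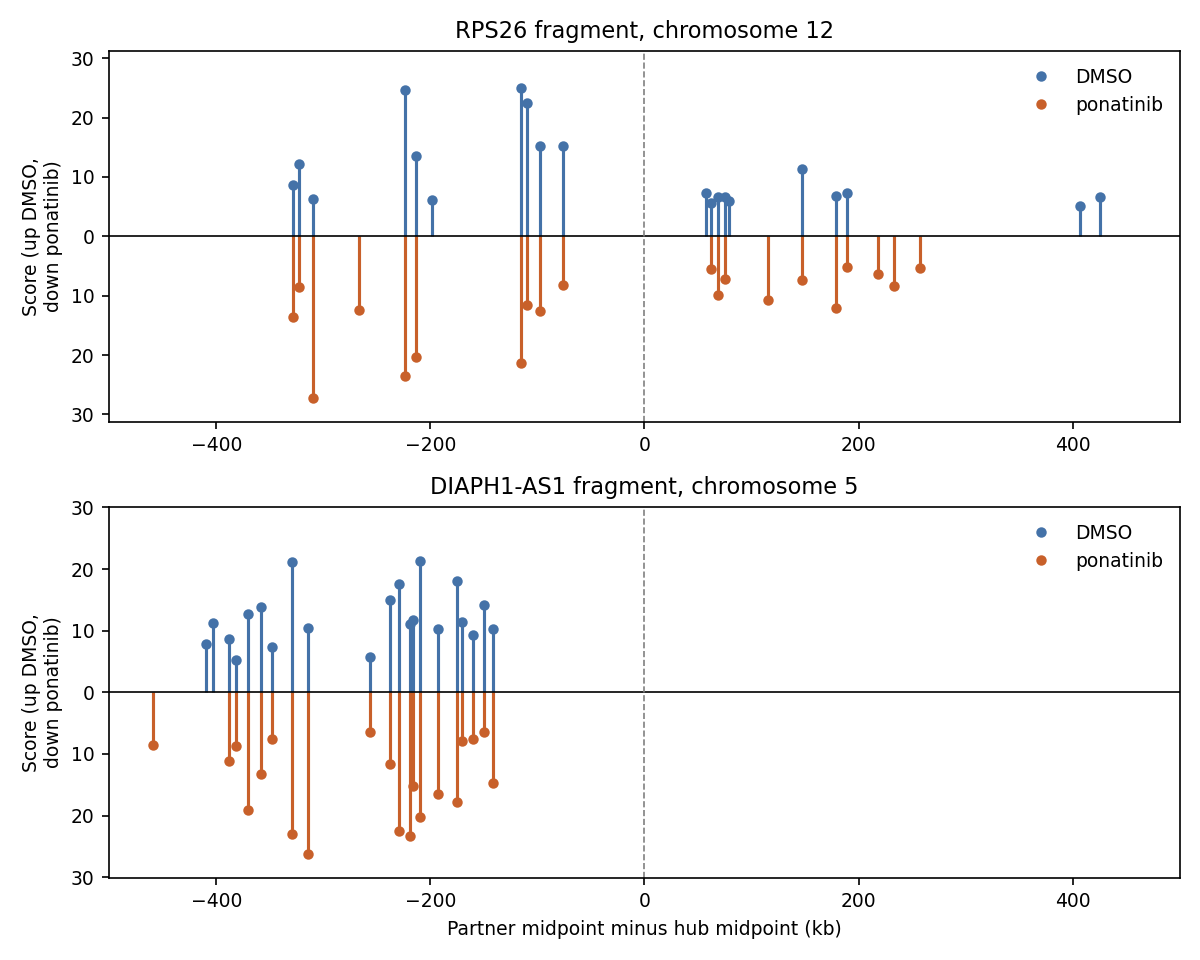
Scores of promoter partners of the RPS26 fragment (top) and of the DIAPH1-AS1 fragment (bottom), upward in DMSO and downward in ponatinib, by partner midpoint minus hub midpoint (kb). RPS26 has partners on both sides, while all 22 partners of the DIAPH1-AS1 fragment lie at lower coordinates, 141 to 459 kb away.

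The 238 hubs fell into 83 neighbourhoods when hubs within 500 kb of each other were joined. Of these, 45 held 1 hub, and 14 with at least 5 hubs held 125. The largest, with 19 hubs around RPS26 on chromosome 12 (55722875 to 57744825), had 247 of its 832 possible pairs listed (29.7%), 110 of them shared. Another 15 hubs lay in the protocadherin region of chromosome 5, with 160 of 420 possible pairs (38.1%). A neighbourhood of 13 hubs on chromosome 14 ran from OXA1L to THTPA/ZFHX2 and held PRMT5, an arginine methyltransferase gene, and ACIN1. ACIN1, on 2 fragments, had more promoter pairs over both lists than any other gene, 36, with 24 in DMSO and 32 in ponatinib. On chromosome 11 (62390619 to 62857890) 11 hubs had 125 of 305 possible pairs (41.0%), among them the SCGB1A1 fragment, with 15 partners in DMSO and 19 in ponatinib, and a fragment within EEF1G, with 16 and 18. Pairs were densest around RAB34, FLOT2, DHRS13 and SEZ6 on chromosome 17, where 28 of 29 possible pairs were listed (96.6%) and 24 were shared. Around POP5 on chromosome 12, 45 of 64 possible pairs were listed (70.3%), 32 of them shared. POP5 is a subunit of RNase P. Neighbourhoods were named for size or density after their values were seen. Hubs were chosen for having many listed pairs, so a high listed share around them is partly fixed by that choice. Even so, other neighbourhoods had low shares. Around POLA2, KAT5 and a fragment in PACS1 on chromosome 11, 42 of 308 possible pairs were listed (13.6%). Around ZNF785 and SRCAP on chromosome 16, 71 of 364 were listed (19.5%).

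The DIAPH1-AS1 fragment (5:141556397-141562999), which holds the start of that long non-coding RNA gene and of no coding gene, had 21 partners in DMSO and 20 in ponatinib, with 19 shared. All 22 lay on 1 side, and 20 of them were on fragments of the protocadherin genes or within them. The highest ponatinib score was at PCDHB15 (26.18, and 10.44 in DMSO), and the highest DMSO score at PCDHGB1 (21.3, and 20.21 in ponatinib). PCDHB14 had 21.12 and 23. The partners without a protocadherin were SLC25A2 (5.7 and 6.45) and TAF7, a subunit of TFIID (14.93 and 11.59).

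Family members lie side by side, so listed pairs were set against the possible pairs of each family and against the number that the same distances give over all bait fragments. Clustered protocadherin genes, which encode neuronal adhesion proteins, had 135 of 339 possible pairs listed (39.8%, 34.6 to 45.3%), where distance alone gives 67.5. Of these, 99 were in DMSO, 94 in ponatinib and 58 in both. With baits required in both lists the 135 of 339 pairs stood against 83.4 from distance, a smaller margin. Pairs joined the beta to the gamma genes in 63 of 144 possible cases (29.6 from distance) and the alpha to the beta genes in 40 of 96 (15.3 from distance). Alpha to gamma pairs were listed in 2 of 13 cases (1.49 from distance). Within the gamma genes 17 of 38 were listed (9.36 from distance), 8 of them in both lists. Within the alpha genes 5 of 11 were listed (2.69 from distance), 3 of them in both lists. Within the beta genes 8 of 37 were listed (9.08 from distance), none of them in both lists. The strongest pair was PCDHB14 with PCDHGC3 (15.12 in DMSO and 11.51 in ponatinib), and PCDHA2 with PCDHB15 scored 11.15 and 11.91 over 451 kb. PCDHB7 had 18 partners within the family, 13 in each list and 8 shared.

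Replication-dependent histone genes had 61 of 170 possible pairs listed (35.9%, 28.7 to 43.6%), against 39.1 from distance, all on chromosome 6. There were 44 in DMSO, 53 in ponatinib and 36 in both. With baits required in both lists 61 of 156 were listed (39.1%, 31.4 to 47.2%), against 45.9 (29.4%) from distance, a smaller margin. H2AC15/H2BC15 with H2BC17 scored 28.31 in DMSO and 30.13 in ponatinib, and H4C12 with H2AC17/H3C12 21.61 and 19.53. The H2AC4/H3C2 fragment had 10 histone partners, 9 in DMSO and 6 in ponatinib. Histone fragments were in 153 pairs in all. The other ends held zinc finger genes in 17 pairs and butyrophilin genes, which encode immune surface proteins, in 10. Ends without a gene were in 11 pairs, ends within H3C2 but without a start in 11, and ABT1 in 8. None of these numbers was set against possible pairs, so they show no preference for a partner.

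Some smaller families also had many listed pairs, but only families with at least 5 listed pairs were named, which leaves out low ones. Alcohol and aldehyde dehydrogenase genes had 0 of 12 possible pairs (2.63 from distance) and CD1 genes 0 of 7 (1.72 from distance). Metallothionein genes, which encode metal-binding proteins, had 6 of 8, 5 of them in both lists, with MT3 and MT1H at scores of 18.23 in DMSO and 9.25 in ponatinib. The single MT3 fragment was an end of 5 of these 6 pairs. Chemokine genes had 5 of 8, all 5 in DMSO and 1 in ponatinib. The 1 in both joined CXCL1 to CXCL2, which attract neutrophils (12.18 and 9.31). With so few possible pairs the intervals were wide, 34.9 to 96.8% for metallothionein and 24.5 to 91.5% for chemokine genes. S100 genes had 8 of 22, led by S100A2 with CHTOP/S100A1/S100A13 (10.98 and 8.19), and interleukin 1 family genes 6 of 18, led by IL1A with IL1B (8.19 and 7.47). The intervals of these last families hold the share from distance. So did those of solute carrier genes, with 14 of 53 pairs, defensin genes, with 5 of 20, and kallikrein genes, with 5 of 32.

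**Figure D4:**
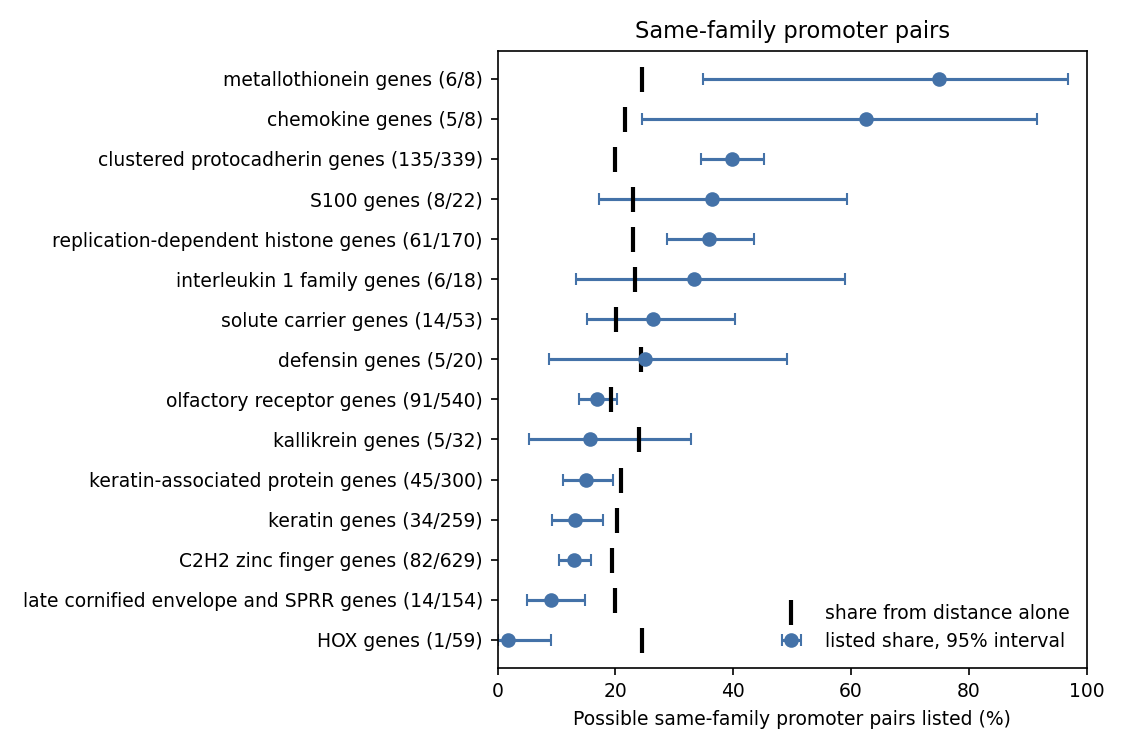
Share of possible same-family promoter pairs that was listed (%), with 95% binomial intervals (points and bars), and the share that the distances alone give (black ticks), for the 14 families with at least 5 listed pairs and the HOX genes. Listed over possible pairs are in parentheses, and the protocadherin and histone points lie to the right of their ticks with intervals that do not reach them.

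Other large families fell below the distance-based number. HOX genes, the body axis regulators, had 1 of 59 possible pairs listed, against 14.5 from distance. Late cornified envelope and SPRR genes of the skin barrier had 14 of 154 (30.6 from distance) and keratin genes 34 of 259 (52.5). Keratin-associated protein genes had 45 of 300 (62.9), of which 5 were in both lists. C2H2 zinc finger genes, which encode DNA-binding proteins, had 82 of 629, against 122.5 from distance, and their chromosomes differed. On chromosome 19 they had 37 of 485 pairs, against 92.0 from distance. On chromosome 6 they had 21 of 31, against 6.96, led by ZKSCAN8 with ZKSCAN3/ZSCAN31 (19.97 in DMSO and 16.5 in ponatinib). When both fragments had to be baits in both lists, the zinc finger total came to 57 of 255 pairs, against 63.2 from distance, and the chromosome 19 number to 14 of 139, against 33.0. Under that limit the HOX, skin barrier, keratin and keratin-associated protein numbers also stayed below those from distance. Olfactory receptor genes had 91 of 540 (16.9%), with an interval (13.8 to 20.3%) that holds the 19.3% from distance. Over all families 531 of 2676 same-family pairs were listed (19.8%), against 20.0% of pairs with coding genes at both ends that were not of 1 family. These groups were not matched on distance, with possible pairs a median of 199 kb and 260 kb apart. Distance alone gives 20.4% for the same-family pairs and 18.6% for the others. The MHC class I and II genes were not analysed here.

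The promoter sequences of these families differed, with 22199 windows of 300 bases from 15843 coding genes as the background. TATAAA was in 67.2% of 58 histone windows and CCAAT in 86.2%, against 9.47% and 34.7% of all windows. TGGCGCT was in 34.8% of 46 protocadherin windows, against 4.95% of all. The CTCF core letters were in 6.65% of all windows and in 0% of the protocadherin windows. Only these exact letters were searched, so a lack of matches does not show a lack of CTCF sites. The ETS letters were in 35.9% of zinc finger windows, against 12.8% of all. TATAAA was in 73.8% of keratin-associated protein windows and in 37.3% of olfactory receptor windows. The ETS letters were in 17.5% of the 251 windows on hub fragments and 16.1% of windows on fragments with 1 to 9 partners. On bait fragments with no promoter pair they were in 12.3%. The YY1 letters were in 5.98%, 4.64% and 2.74% of these classes. The GC box letters were in 55.0% of hub windows, 64.0% of windows on fragments with 1 to 9 partners and 60.4% of those with no promoter pair. Median GC content was 61.0% on hubs, 64.0% on fragments with 1 to 9 partners and 63.7% on those with none.

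Between the treatments most genes had numbers of promoter pairs within 2-fold. Of 1899 genes with at least 5 pairs over both lists, 848 had more in ponatinib, 654 fewer and 397 the same number, and the median log2 ratio was 0. Ratios were taken as log2 of ponatinib plus 1 over DMSO plus 1. In ponatinib 144 genes (7.58%) had at least 2-fold more and 73 (3.84%) at least 2-fold fewer, where the same rule over all listed pairs gives 10.3% and 6.6% of 8222 genes. Once the ponatinib numbers were scaled down by the ratio of promoter pairs in the lists, 87 genes had 2-fold more and 74 fewer, and with lists of equal length 111 had more and 90 fewer. GTF3C2 had 0 pairs in DMSO and 13 in ponatinib, the widest difference. Its strongest partners were UCN, ATRAID/SLC5A6 (15.05), a fragment in IFT172 (13.46) and EMILIN1/KHK (11.66). CTCF, the insulator protein gene, had 0 and 7, led by a fragment in its own gene body (17.71). ECI1, an enzyme of fatty acid oxidation, had 0 and 7. MAP4K2, MEN1 and CDC42BPG, on 1 fragment, had 0 and 6, as had SLC22A5, the carnitine transporter gene, and TRAF3IP3.

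The genes with 0 pairs in DMSO were often on fragments that the DMSO list lacked. Of the 144 genes, 11 had no promoter pair in DMSO, and 8 of the 144 had fragments in no DMSO pair of any kind. For 11 of the 144 no fragment was a bait in DMSO. Such baits were common in both directions: of 16547 bait fragments, 1873 were baits in ponatinib only and 1775 in DMSO only. GTF3C2 had 0 pairs of any kind in DMSO and 17 in ponatinib, CTCF 0 and 9, ECI1 0 and 7, SLC22A5 0 and 7, and TRAF3IP3 0 and 9. Whether these baits were captured in the DMSO library was not tested. The widest differences the other way were smaller. DCTN1, a dynactin subunit gene, and GSDMA, a gasdermin gene, had 6 pairs in DMSO and 1 in ponatinib. ELK4, an ETS factor gene, MYCBPAP, ATP5MC1, an ATP synthase subunit gene, and DRGX had 5 and 1. MYCBPAP lay on 2 fragments, with 3 and 0 pairs on the one shared with EPN3 and 2 and 1 on the other. Each of these 6 genes still had a listed fragment in ponatinib. UCN, next to GTF3C2, had 20 and 10.

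**Figure D5:**
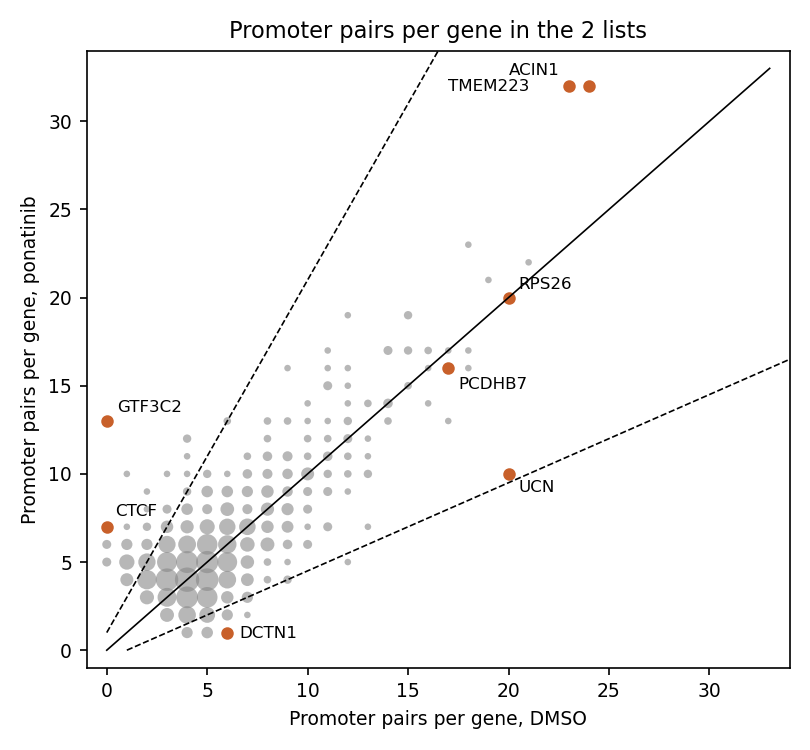
Promoter pairs per gene in DMSO and in ponatinib for the 1899 genes with at least 5 pairs over both lists. Grey points grow with the number of genes at a position, the solid line marks equal numbers, the dashed lines a 2-fold difference with 1 added to each number, and the labelled genes include GTF3C2 (0 and 13), UCN (20 and 10) and ACIN1 (24 and 32).

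Over all genes the ratio of ponatinib to DMSO was 1.06 (1.03 to 1.09), and gene lists for the lineage and drug of these cells were set beside it. Erythroid genes, for the lineage K562 resembles, had 84 pairs, 56 in DMSO and 70 in ponatinib (ratio 1.25, 0.867 to 1.81). None of the 4 members with at least 5 pairs was 2-fold different. RHAG, a red cell membrane gene, had 7 in each list. Genes of the STAT5, JAK and ERK pathways, which act downstream of BCR-ABL1, had 46 and 52 pairs, a ratio of 1.13 (0.746 to 1.72). Of 4 such members 1 was 2-fold different, where 7.58% of all 1899 genes had 2-fold more and 3.84% fewer: CISH, a STAT5 target that inhibits cytokine signalling, had 3 and 7, on a fragment shared with MAPKAPK3. Cell cycle genes had 69 and 83 pairs, a ratio of 1.20 (0.864 to 1.68), and 1 of 7 members had 2-fold more (7.58% over all genes), TOP2A, the DNA topoisomerase gene, with 2 and 5. CDC25A, a phosphatase that activates cyclin-dependent kinases, had 5 and 9.

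Ribosomal protein genes had 142 and 157 pairs, a ratio of 1.11 (0.875 to 1.40), and of 11 members with at least 5 pairs RPS20 had 2-fold more (2 and 5) and RPS14 2-fold fewer (5 and 2), beside 7.58% and 3.84% over all genes. RPL41 had 11 in each list. Proteasome genes had 35 and 36. Of 2 members with at least 5 pairs 1 had 2-fold fewer (3.84% over all genes). It was PSMD4, a ubiquitin receptor of the proteasome, with 7 and 3. Megakaryocyte genes had 6 and 6. Genes of other cell types had pairs too. Lymphoid genes had 34 and 45, a ratio of 1.32 (0.829 to 2.13), with CD4 at 9 and 13 on fragments shared with GPR162 and P3H3. Liver and neuron genes had 21 and 27, a ratio of 1.29 (0.700 to 2.39). Of 3 members with at least 5 pairs 1 had 2-fold more (7.58% over all genes). It was GFAP, on a fragment shared with FAM187A, with 1 and 5. The intervals of all 8 lists hold the ratio of all genes.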

How the data were processed

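The authors deposited 1 interaction list per library, with a score for each line that is their own value. Coordinates are those of hg38, per the submitters' processing notes. Aligner, caller, score definition and threshold are not given in the sources. No score lies below 5. No read counts are in the files, so depth is unknown and nothing was scaled for it. Lines were reduced to unordered fragment pairs, and shared means the identical pair in both lists.

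Coding genes were placed by RefSeq starts (GRCh38.p14), 9951 genes, or by either end where no start was given (2493). The number from distance applies the listed share of each 50 kb bin to a family's possible pairs. Intervals are Clopper-Pearson, order-statistic for medians and Newcombe's for differences. Members, gene lists and families were chosen with earlier results of these data known. The 10 strongest shared pairs, 5 per list alone, 10 top hubs, 2 pairs per family with at least 5 listed, and the 6 largest gene differences each way were named, plus up to 2 members each way per gene list. Some genes the rule allows are not reported here. Other partners and the densest neighbourhoods were named after their values were seen. Python 3.11.15, pandas 2.3.3, numpy 2.4.6, scipy 1.17.1, networkx 3.6.1 and matplotlib 3.10.9 were used. Counting steps were tested on simulated data.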

Additional observations from a re-analysis of the deposited data

How the results depend on the processing

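No paired analysis was possible because each group has 1 library. Apart from the same-family share, none of the results followed across the settings reversed. Whether that share stayed below the share from distance was not tested across the settings. At a score of at least 7 the shared part of the union was 37.5% (38.5% as reported), the promoter minus distal difference 6.55 points, the median distance 200.3 kb, hubs 56, genes with 2-fold more and fewer pairs 57 and 26, and the same-family listed share 8.78%. At a score of at least 10 the difference was 1.63 points, the share of shared pairs with the higher ponatinib score 56.5% (52.7% as reported), the median distance 189.7 kb, hubs 11, genes 12 and 2, and the same-family share 3.03%. With lists of equal length the ratio of promoter pairs was 1.00 (0.977 to 1.03) and the share with the higher ponatinib score 54.1%. With baits in both lists 42.9% of the union was shared and the same-family share was 26.6%, against 23.2% of all possible pairs. As reported, the same-family share was 19.8%, above the 18.6% of all possible pairs but below the 20.4% from distance. With baits in both lists no share from distance is given for all families together, so a reversal against distance is not excluded. Ends matched within 5 or 10 kb gave 50.5% and 54.8% shared. Genes with at least 10 pairs numbered 11 and 2 past 2-fold, and dividing ponatinib numbers by the ratio of promoter pairs left 87 with more. Hubs numbered 508 at 8 partners and 50 at 15. The cause of these changes was not tested, beyond fewer pairs at higher scores. The other 25 values of these results stayed within their interval or within 1.5 times. For single families 34 values held and 20 moved, most of them at higher scores. Depth is unknown, so a pair missing from 1 list was not shown to be absent from those cells.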
